A study of Mus musculus with 18 samples.

Results

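Joins between the bait coding end and the DNA on the other side of the same recombination signal sequence were examined in 12 junction libraries. They were chosen by position: the prey lay on the integrated substrate, was read on the minus strand like the bait, and began between 943 and 1942, the 1000 bp that end at the border of the bait's own signal. Of 30937 junctions in the 12 libraries, 9015 had their prey on the substrate, and 557 of these met the rule. The rule uses position and strand alone. Within 100 bp inside the lower limit there were 4 such joins, and within 100 bp outside it there were 3. The 100 bp outside the upper limit, on the coding side of the border, held 68 minus-strand junctions.

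In V(D)J recombination the RAG nuclease cuts between a coding segment and its recombination signal, which is made of a heptamer, a spacer and a nonamer. The cut leaves a coding end closed as a hairpin and a blunt signal end. DNA-PKcs with Artemis opens the hairpin, and the coding ends of both partners are then normally joined by classical end joining, while the signal ends are joined to each other. A coding end joined back to the signal side from which it was cut is called an open-and-shut join when little is lost, and such a join, or a longer deletion across the border, leaves the partner segment out. CtIP promotes the trimming of DNA ends, which exposes short homologies.

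The cells were v-abl-transformed mouse B cells of strain 129 that carried the pMX-INV substrate, in which RAG cutting is followed by inversion of the segment between the signals. All were treated with the Abl kinase inhibitor STI571 at 3 µM. For the G1 libraries this lasted 48 or 72 h. For the G2 libraries it lasted 24 h and was followed by 48 h in medium with the CDK1 inhibitor RO3306 at 10 µM. Each of 4 genotypes, wild type, DNA-PKcs-/-, CtIP A/A and the double mutant CtIP A/A DNA-PKcs-/-, had 1 library in G1 and 2 in G2. The labels do not describe the A allele, do not say whether a genotype was studied in more than 1 line, and do not name separate cultures, so a p-value here reflects only how far these libraries spread, which may be technical, and genotype and line cannot be told apart. Cell identity cannot be checked in junction data. Libraries of I-PpoI breaks from the same series were not analysed here.

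The libraries held 289 to 7068 junctions and 185 to 1855 substrate junctions each. Where DNA-PKcs was present (6 libraries), substrate junctions made up at least 39.3% of a library, and in the 6 DNA-PKcs-/- libraries at most 32.4%, with no overlap. Read names carried 2 sequencing run numbers: the G2 library numbered 1 of every genotype was in run 1, and the other 8 libraries were in run 2. The class most often compared below, coding joins, had 7514 members within 1000 bp of a peak at 2811 on the plus strand.

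Some short sequences define the region and its reads. They are given as read, from the bait towards the prey, and the positions are those of the substrate as the junction tables number it. The first is the bait's own heptamer, at 1936 to 1942, of which the base at 1942 touches the coding segment:
signal heptamer: CACAGTG
The nonamer lay at 1915 to 1923, 12 bp further from the border. The BstBI recognition site, used in the library preparation to cut away unrearranged template, lay at 1904 to 1909, between the nonamer and the rest of the signal side. It is shown with its 3 most frequent altered forms in these reads, with the changed base in capitals:
BstBI site: ttcgaa
changed site T2C: tCcgaa
changed site T2A: tAcgaa
changed site T1C: Ctcgaa
Positions in these tokens are counted from the first base of the site as read. The adapter that follows the prey in the reads shares 8 bases, in capitals, with the substrate at 1897 to 1904, beside the site:
adapter after the prey: accACGCGTGCcctatagtc

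The share of substrate junctions that joined the bait's own signal side differed between libraries, from 1.62% to 12.4%. In wild type it was 5.78% in G1 (68 of 1176; 95% Wilson interval 4.59% to 7.27%), and 2.70% (10 of 370) and 1.62% (3 of 185) in the G2 replicates. In CtIP A/A it was 3.95% in G1 (21 of 531), and 3.12% (11 of 353) and 1.88% (7 of 372) in G2. In both genotypes with DNA-PKcs the G1 library was the higher. In DNA-PKcs-/- it was 10.1% in G1 (140 of 1384), and 12.4% (105 of 850) and 3.57% (20 of 561) in G2. In CtIP A/A DNA-PKcs-/- it was 4.91% in G1 (91 of 1855), and 5.24% (24 of 458) and 6.20% (57 of 920) in G2. The DNA-PKcs-/- G2 replicates thus had intervals that did not meet, 10.3% to 14.7% against 2.32% to 5.44%, and they came from different runs. The intervals cover counting error only, since the reads carry no molecular identifiers and several may stem from the same molecule.

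**Figure D1:**
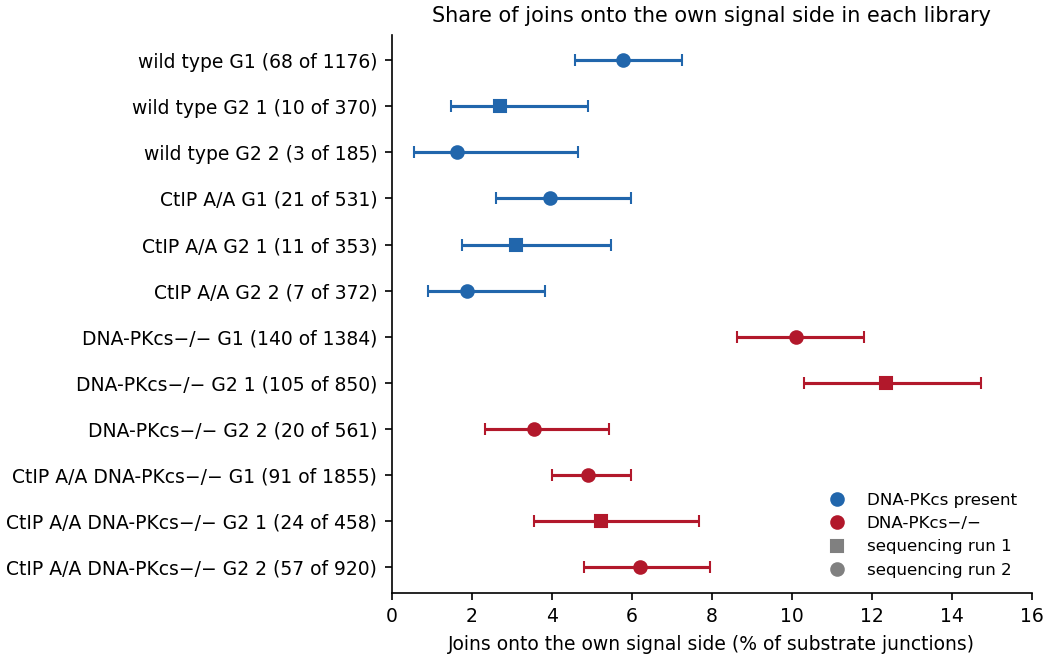
The x axis gives joins onto the own signal side as a percentage of substrate junctions, with 1 row per library, the counts in brackets, and bars for the 95% Wilson interval. DNA-PKcs-/- libraries (red) sit between 3.57% and 12.4% and those with DNA-PKcs (blue) between 1.62% and 5.78%, so the groups overlap.

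Loss of DNA-PKcs went with a higher mean share in all 4 strata of CtIP genotype and phase. The means were 7.06% ± 3.41 (SD, n = 6) and 3.18% ± 1.53 (n = 6), and the difference weighted over strata was 3.57 percentage points (95% permutation interval 0.955 to 7.51). The exact stratified permutation test, two-sided over 144 arrangements, gave p = 0.0139, the smallest it can give, and p = 0.0972 after Benjamini-Hochberg adjustment over the 7 measures tested for each factor, so the difference did not pass 0.05. When identical lines (same prey position and bait end in a library) were counted once, the difference was 3.10 points and the adjusted exact p was 0.0486. With all junctions as the denominator it had the other sign, -0.165 points, with means of 1.73% ± 0.978 and 1.82% ± 0.592 (n = 6 each). Within run 1 the difference was 5.89 points and within run 2 it was 2.89 points, with too few libraries for either test to pass. The direction of the share thus depended on the denominator, beside the lower share of substrate junctions in DNA-PKcs-/- libraries given above. CtIP A/A libraries differed by -2.24 points (exact permutation p = 0.25) and G2 from G1 by -1.61 points (exact permutation p = 0.395). Neither passed, and their intervals, -5.84 to 1.66 and -5.35 to 2.09, include differences of either sign.

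Prey ends were densest in the heptamer and inside the BstBI site, and sparse beyond 100 bp. They ranged from 1014 to 1942 with a median of 1897. The 7 bases of the heptamer held 72 joins, or 10.3 per bp. From 1909 to 1935, the stretch with spacer and nonamer, there were 90 joins (3.33 per bp). Inserted bases that match adapter letters, described below, were in 14 joins at 1904. The 5 positions 1904 to 1908, at which the join cuts into the BstBI site, held 59 (11.8 per bp), these 14 included. From there to 100 bp the density was 3.00 per bp (186 joins), from 101 to 200 bp it was 0.49 per bp (49 joins), and beyond 200 bp it was 0.126 per bp (101 joins). DNA-PKcs-/- libraries, which held 437 of all 557 joins, gave 64 of the 72 heptamer joins. Of these 64, 25 came from 1 library, CtIP A/A DNA-PKcs-/- G2 replicate 2, which held 57 joins. Libraries with DNA-PKcs, which held 120 of all 557 joins, gave 52 of the 101 joins beyond 200 bp. Of these 52, 50 were in the G1 libraries. In G2 such joins made up 5.84% ± 7.07 (SD, n = 4) of a library's joins with DNA-PKcs and 17.8% ± 13.9 (n = 4) without it, and in G1 52.9% and 66.7% with it and 5.00% and 18.7% without.

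**Figure D2:**
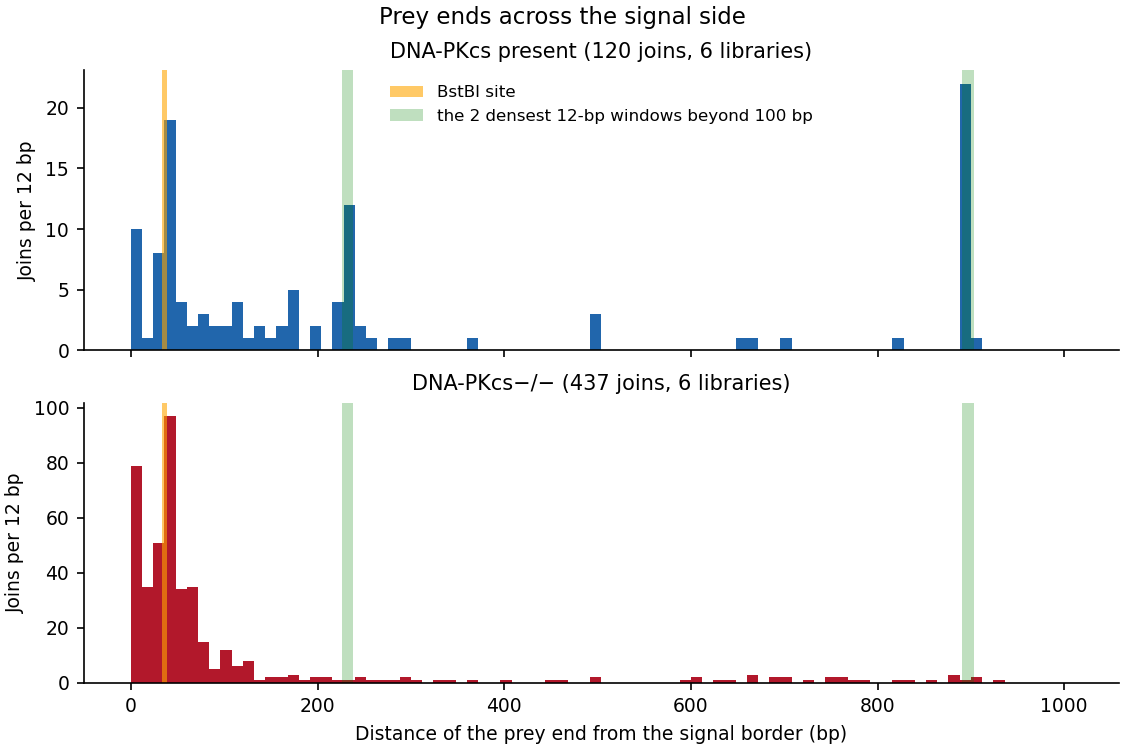
Histograms of the distance of the prey end from the signal border (x axis, bp) in joins per 12 bp (y axis, scaled separately), for the libraries with DNA-PKcs (top, 120 joins) and without it (bottom, 437 joins). Most DNA-PKcs-/- ends lie within 100 bp, while the joins with DNA-PKcs also pile up in the 2 green windows, which hold 23 and 16 of them.

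The border base of the heptamer, 1942, is where a signal end cut by RAG and left whole would begin. It had the most prey ends when libraries were pooled, 32 joins in 8 libraries. DNA-PKcs-/- libraries, which held 437 of all 557 joins, gave 30 of these. With libraries weighted equally position 1942 held 6.71% of joins, after 1898 (10.2%), 1904 (7.40%) and 1913 (6.92%). The second wild type G2 replicate, with only 3 joins, had 1 each at 1898, 1904 and 1942, and single reads there weigh heavily in these means. Of the 32 joins at 1942, CtIP A/A DNA-PKcs-/- G2 replicate 2 gave 9. The G1 library of that genotype and the DNA-PKcs-/- G1 and first G2 libraries gave 6 each, and wild type gave 1 in G1 and 1 in G2. Of the 32, 19 were direct, 6 used homology and 7 carried inserted bases. The bait end joined to a whole signal end had lost 12 to 133 bp, with a median of 28.5 bp, and it ended at 23 different positions. A whole bait end here would give the uncut sequence, which is not a junction, so its absence was fixed in advance. No join of the whole set had fewer than 10 bp between its ends. 

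The bait end was measured as the number of coding bases missing from the border, counting bases that could belong to either side as kept. Its median was 29 bp. A bait end within 5 bp of the first coding base on either side was found in 54 of the 101 joins beyond 200 bp. No join with such a bait end had its prey end in the heptamer. That pairing would leave few bases between the ends, and no join here had fewer than 10. It may therefore not have been callable, which was not tested. Ends that had lost 0 to 5 bp numbered 60, of which 39 came from libraries with DNA-PKcs, 38 of them in G1. Ends that had lost 6 to 20 bp numbered 132, and 125 of these came from DNA-PKcs-/- libraries, which held 437 of all 557 joins. Losses of 21 to 50 bp (137 joins), 51 to 100 bp (134) and over 100 bp (63) made up the larger part of the joins.

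A further 24 bait reads ran 1 or 2 bases past the coding segment, as if into the heptamer. Of these, 21 were in DNA-PKcs-/- libraries, which held 437 of all 557 joins, so the count is near their share. The position 1941, the second heptamer base from the border, was among the most used bait ends, with 19 joins at 17 prey positions. CtIP A/A DNA-PKcs-/- gave 10 of them in G2 replicate 2 and 5 in G1. Palindromic bases left by opening a hairpin away from its tip and the heptamer bases themselves cannot be told apart where their letters are the same. Only 7 bait ends lay further past the border, the lowest at 1908.

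**Figure D3:**
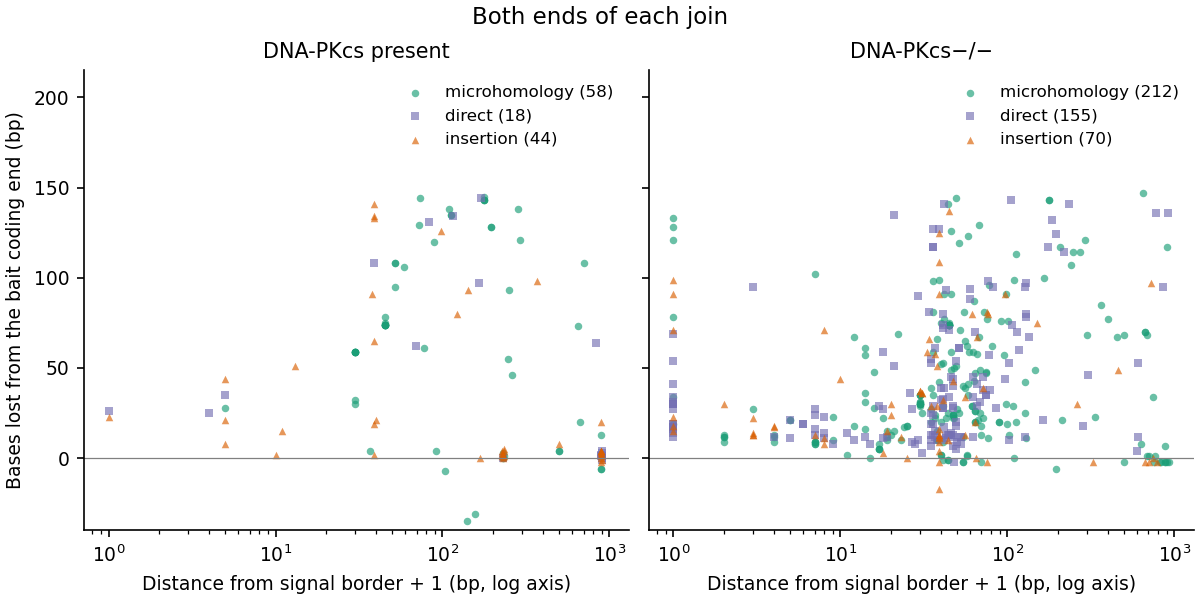
Each point is a join, placed by the distance of its prey end from the signal border plus 1 (x axis, bp, log axis) and the bases lost from the bait coding end (y axis, bp; below 0 the bait runs past the border), in libraries with DNA-PKcs (left) and without (right). Most joins in the tight clusters at the right of the left panel sit close to 0 on the y axis, and the column at the left edge of the right panel holds the 30 joins at the border base of the heptamer.

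Beyond 100 bp the prey ends were not spread evenly, and 2 windows of 12 bp stood out. They were picked because they were the densest, so they are described without a test. The window from 1040 to 1051 held 25 joins, of which 18 were from wild type G1 and 5 from CtIP A/A G1. The window from 1705 to 1716 held 17, of which 10 were from wild type G1 and 5 from CtIP A/A G1. DNA-PKcs-/- libraries, with 437 joins, had 3 in both windows together. The third densest window, 1830 to 1841, held 14 joins from 7 libraries, 10 of them in DNA-PKcs-/- libraries.

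Both windows lay on heptamer-like letters. The signal side was searched for 7-base windows with 6 or 7 matches to the heptamer on either strand, and 5 of 994 windows (0.503%) had them, the signal's own heptamer included. The sequences at the 2 windows are shown for that match, with bases that match the heptamer in capitals:
1044 to 1050, read strand, 6 of 7 matches: CACAGTc
1710 to 1716, opposite strand, 7 of 7 matches: CACAGTG
The first stretch held 21 prey ends and the second 15, and 7 prey ends lay exactly at 1050. A further match, at 1712 to 1718, overlaps the second, and the remaining one, at 1770 to 1776, held 2. A match is a description of the letters, and cutting at these positions was not tested.

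In the G1 libraries of both genotypes with DNA-PKcs, 38 joins lay in the windows and 51 outside. Inside, 34 of 38 had bait ends within 5 bp of the first coding base and 23 carried insertions. Outside, 7 of 51 had such bait ends, 16 carried insertions and 29 used homology. The median bait loss was 1.5 bp inside and 64.0 bp outside. In G2 the libraries with DNA-PKcs had 1 join in the windows among 31. These windows therefore bear on every G1 value given for wild type and CtIP A/A, for which 36 of 68 and 14 of 21 joins lay beyond 200 bp.

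The sequences at the joins were sorted by how many bases bait and prey shared. Microhomology of 1 bp or more was present in 270 joins (48.5%), 173 (31.1%) were direct and 114 (20.5%) had inserted bases. Most homologies were short, with 208 of 1 to 3 bp and 62 of 4 bp or more. In wild type G1 microhomology was in 41.2% of joins and insertions in 42.6%, and in DNA-PKcs-/- G1 the values were 42.9% and 18.6%. In CtIP A/A G1 they were 38.1% and 47.6%, and in CtIP A/A DNA-PKcs-/- G1 they were 48.4% and 17.6%. All 10 joins of the first wild type G2 replicate used homology, and the second replicate had only 3 joins in all.

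Insertions were in 28.4% ± 17.4 (SD, n = 6) of joins with DNA-PKcs and in 15.3% ± 3.63 (n = 6) without it. The stratified difference was -16.6 points (exact permutation p = 0.111, adjusted 0.175). Without the joins of both windows, which were left out as an alternative chosen after seeing the data, insertions made up 13 of 40 joins in wild type G1 and 3 of 11 in CtIP A/A G1. Microhomology was in 55.6% ± 24.7 (n = 6) and 52.1% ± 9.26 (n = 6), and the stratified difference was -1.11 points, with an interval from -31.1 to 17.1. That interval includes differences of either sign. Bait losses over 20 bp were in 33.3% to 75.0% of a library's joins without DNA-PKcs and in 41.2% up to all of them with it (stratified difference -9.66 points, exact permutation p = 0.472, adjusted 0.551). Without the wild type G1 library that difference was -24.2 points.

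Inserted bases were mostly 1 to 3 in number (92 joins), with 22 joins of 4 or more. Across the 100 insertions that did not match the adapter there were 285 inserted bases, of which 64.2% were G or C. Some of the longer insertions, all of whose bases are inserted, are shown because no copy of them was found on the substrate:
wild type G1, prey at 1776: AGGAGCCACAAGCGC
wild type G1, prey at 1050: TCCGTTG
CtIP A/A G1, prey at 1938: TTCGATG
DNA-PKcs-/- G1, prey at 1905: TAACCCTAACCCT
CtIP A/A DNA-PKcs-/- G1, prey at 1480: ATAAAGGC
The fourth is made of repeats of the mammalian telomere unit. Of the 6 insertions of 8 bp or more, 3 had a copy elsewhere on the substrate.

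Adapter letters met the substrate at 1 prey position. Of the 22 joins at 1904, 14, in 6 libraries, had inserted bases equal to the bases that precede the shared 8 in the adapter: 3 bases in 4 joins, 2 in 8 and 1 in 2. They were 12.3% of all insertions. Whether the adapter gave rise to these joins was not tested, and leaving them out kept the direction and the side of 0.05 of the 27 differences tested here.

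The 557 joins had 466 distinct pairs of ends. Of these pairs, 420 were seen in 1 library and 46 in 2 or more, and the 46 took up 128 of the 557 joins (23.0%). In 4 or more libraries there were 3. The join from bait end 2017 to prey 1898 was found in all 12 libraries, in 15 reads with 10 distinct far ends of the prey. It had 10 bp of homology and 118 bp between the ends. The prey began at the edge of a NotI recognition sequence at 1891 to 1898, and the bait ran 2 bases past another at 2019 to 2026. It made up 8.20% of joins on average over libraries, because it gave 1 or 2 reads however many joins a library had. The join from 2086 to 1766, with 6 bp of homology, was found in 5 libraries. The join from 2002 to 1913, with 1 bp, gave 6 reads in 4 libraries, all with DNA-PKcs, and each carried the T2C form of the BstBI site. Libraries with DNA-PKcs held 120 of all 557 joins. Bait end 2002 gave 12 joins in all, 6 in libraries with DNA-PKcs and 6 in libraries without it. The join from 1973 to 1913 had 6 bp of homology and was read 6 times in 3 libraries, and that from 1966 to 1942 was read in 2, with 7 inserted bases in the first and 1 in the other, so these were different junctions with the same ends. Prey position 1898 held 22 joins over all 12 libraries, and 1913 held 21 in 7 libraries. Of these 21 joins, 19 used homology, and 8 were in libraries with DNA-PKcs and 13 in libraries without it. Of the bait ends, 1944, with 1 coding base lost, gave 13 joins in 7 libraries, 4 of them in wild type G1 and 4 in CtIP A/A G1. Bait end 2051 gave only 4, each in a different library with DNA-PKcs, beside the share of 120 of all 557 joins that such libraries held. Whether a recurrent join formed anew in each library or passed between libraries was not tested.

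Because BstBI was used to remove uncut template, each join was also sorted by what became of the site. It was deleted whole in 336 joins (60.3%) and cut into by the join in 59 (10.6%). In the other 162 joins (29.1%) the prey began before the site or at its first base, so the site was kept in the substrate span that the join implies. Of these, 66 had prey alignments that ended before the site was complete, with the adapter following in 65, and 33 of them ended at 1910, the base just before the site. In 21 the site was changed in the read: T2C was in 7 joins from 5 libraries, T2A in 4, T1C in 3, and 7 other forms in 1 each. In 75 the whole intact site was read, and 31 of these were in DNA-PKcs-/- G2 replicate 1.

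**Figure D4:**
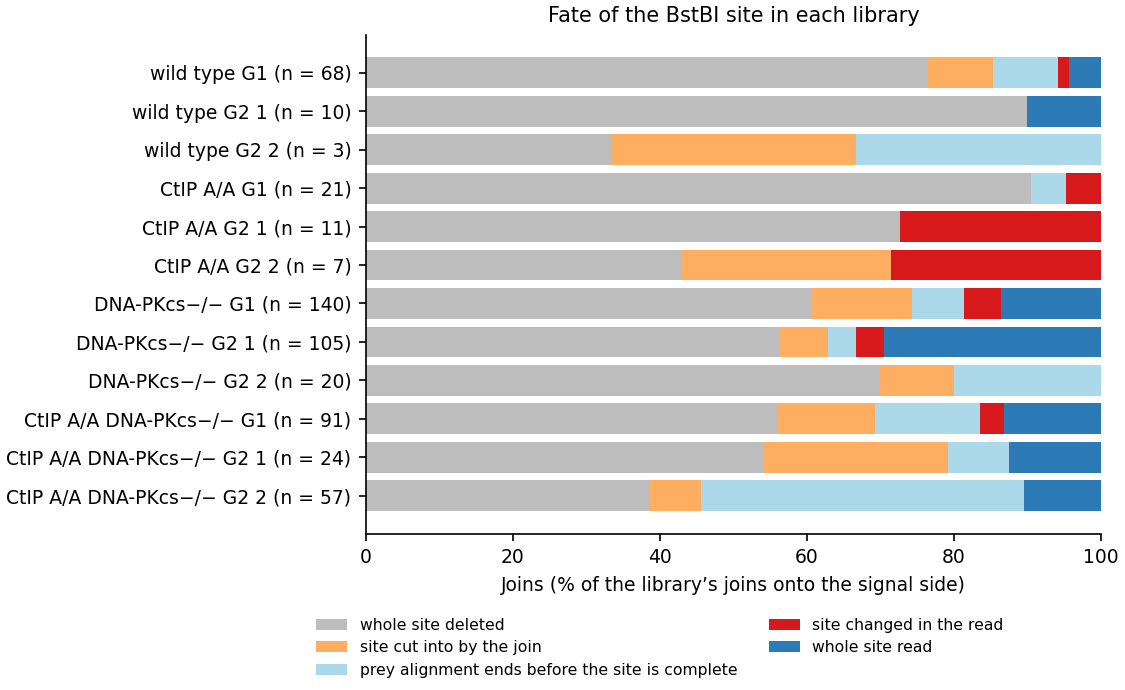
Stacked bars give the percentage of each library's joins (x axis) by the state of the BstBI site, with 1 bar per library and its number of joins in brackets. Grey, joins that deleted the whole site, is the largest part in all libraries but the second CtIP A/A DNA-PKcs-/- and wild type G2 replicates. In the former, prey alignments that end before the site is complete are more numerous, and the latter has 1 join in each of 3 states.

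The site was kept in 9.52% to 33.3% of joins with DNA-PKcs and in 20.0% to 54.4% without it, so the groups overlapped. The stratified difference was 12.2 points (exact permutation p = 0.111, adjusted 0.175). The highest value was from the second CtIP A/A DNA-PKcs-/- G2 replicate, in 31 of 57 joins. In 25 of those 31 the prey alignment ended before the site was complete. The part of the digestion in these numbers was not tested.

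The number of bases between both ends, counting homologous bases as kept on either side, ranged from 10 to 1047 with a median of 96. By library the median was 118 to 261 with DNA-PKcs and 36.0 to 130 without it. The stratified difference was -112 bp (interval -166 to -5; exact permutation p = 0.0278, adjusted 0.0972), and the median was lower without DNA-PKcs in all 4 strata. It did not pass after adjustment, and did with identical lines counted once (-114 bp, adjusted exact p = 0.0486). It was -46.3 bp within run 1 and -117 bp within run 2. In G1 the libraries with DNA-PKcs had medians of 232 and 261 bp, with 28 of 68 and 10 of 21 joins in the windows described above.

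Joins that lost at most 10 bp on each side of the border, here called open-and-shut, were read 13 times. They came from 6 libraries, with 10 to 18 bp between the ends (median 14). CtIP A/A DNA-PKcs-/- had 4 in G1, 1 in the first and 4 in the second G2 replicate, DNA-PKcs-/- had 1 in G1 and 1 in the second G2 replicate, and wild type G1 had 2. All kept the BstBI site in their span. In 10 of the 13 the prey alignment ended before the site was complete, 2 showed the site whole and 1 showed it changed. None kept the whole heptamer: 5 began at 1936, which leaves the heptamer base farthest from the border. Homology was present in 9, 1 was direct and 3 had an inserted base.

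As a share of substrate junctions, open-and-shut joins made up at most 0.170% with DNA-PKcs and at most 0.435% without it. In the second wild type G2 replicate, 0 of 185 allows a share of up to 1.62%, and in DNA-PKcs-/- G2 replicate 1, 0 of 850 allows up to 0.353%. The difference between DNA-PKcs-/- libraries and the others was 0.133 points (exact permutation p = 0.125, adjusted 0.175). With a limit of 20 bp on each side it was 0.915 points (adjusted exact p = 0.0486). A join that restored the border without loss carries the uncut sequence and was not counted. No join had fewer than 10 bp between its ends, so joins with smaller losses may not have been called either. The library preparation cuts at the BstBI site, which lay in the span implied by all 13 open-and-shut joins. Only 2 of the 13 reads showed it whole. The part of calling and digestion in these shares was not tested.

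Signal-side joins were compared with coding joins of the same libraries, in which the bait coding end met the coding side of the inverted substrate. On average over the 12 libraries, signal-side joins had lost more of the bait, used homology more often and carried fewer insertions. Bait losses over 20 bp were found in 64.8% ± 22.5 of signal-side joins and 37.7% ± 19.5 of coding joins (SD, n = 12), a difference of 27.1 points, higher in 9 of 12 libraries (exact sign-flip permutation p = 0.0166, adjusted over 3 measures 0.0166). Microhomology was in 53.8% ± 17.9 and 34.5% ± 11.3, a difference of 19.4 points, higher in 11 of 12 libraries (adjusted exact p = 0.00220). Insertions were in 21.8% ± 13.8 and 41.9% ± 20.8, a difference of -20.0 points, lower in 12 of 12 libraries (adjusted exact p = 0.00146, from the smallest p that the sign flips allow). The homology difference was 10.2 points and did not pass (exact permutation p = 0.111) without the 3 joins seen in 4 or more libraries. The bait-loss difference did not pass in the 8 libraries of run 2 (20.2 points, adjusted exact p = 0.141) or without the 2 libraries of fewer than 10 joins (18.8 points, adjusted exact p = 0.0664). The mean bait-loss difference was 53.9 points with DNA-PKcs, higher in 6 of 6 libraries, and 0.317 points without it, higher in 3 of 6. No signal-side join had fewer than 10 bp between its ends, so joins with small losses may not have been called. The part of this limit and of the BstBI digestion in these differences was not tested. The coding-join class also holds joins onto the inverted bait itself.

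The gap between both kinds of join differed with DNA-PKcs status, in a comparison added after the data were seen. With DNA-PKcs, bait losses over 20 bp were in 74.2% ± 24.2 of signal-side joins and 20.3% ± 4.18 of coding joins (n = 6), and without it in 55.4% ± 17.8 and 55.1% ± 9.58 (n = 6). The stratified test of that difference gave -45.6 points (adjusted exact permutation p = 0.0208). Before adjustment over the 3 measures, this exact permutation test gave p = 0.0139 for bait losses and for insertions. That is the smallest p its 144 arrangements allow. For insertions the gap was -33.0 points with DNA-PKcs and -7.11 points without (difference 23.3 points by strata, adjusted exact p = 0.0208). For microhomology it was 30.8 and 7.88 points (difference -20.9 points, adjusted exact p = 0.0278). The microhomology difference was -8.39 points without the 3 joins seen in 4 or more libraries (adjusted exact permutation p = 0.514), -13.4 points without the first wild type G2 replicate (0.0556), and did not pass in 8 of 12 fits that left out 1 library. It was -51.3 points within run 1 and -8.76 within run 2. The insertion difference was 15.3 points without the same 3 joins (adjusted exact p = 0.0625), 42.6 within run 1 and 17.5 within run 2. For bait losses it was -59.4 points within run 1 and -50.6 within run 2. Neither run alone had enough libraries for a test that could pass. Insertions in coding joins were in 61.4% ± 3.38 with DNA-PKcs and 22.4% ± 5.36 without, and those in signal-side joins in 28.4% and 15.3%.

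**Figure D5:**
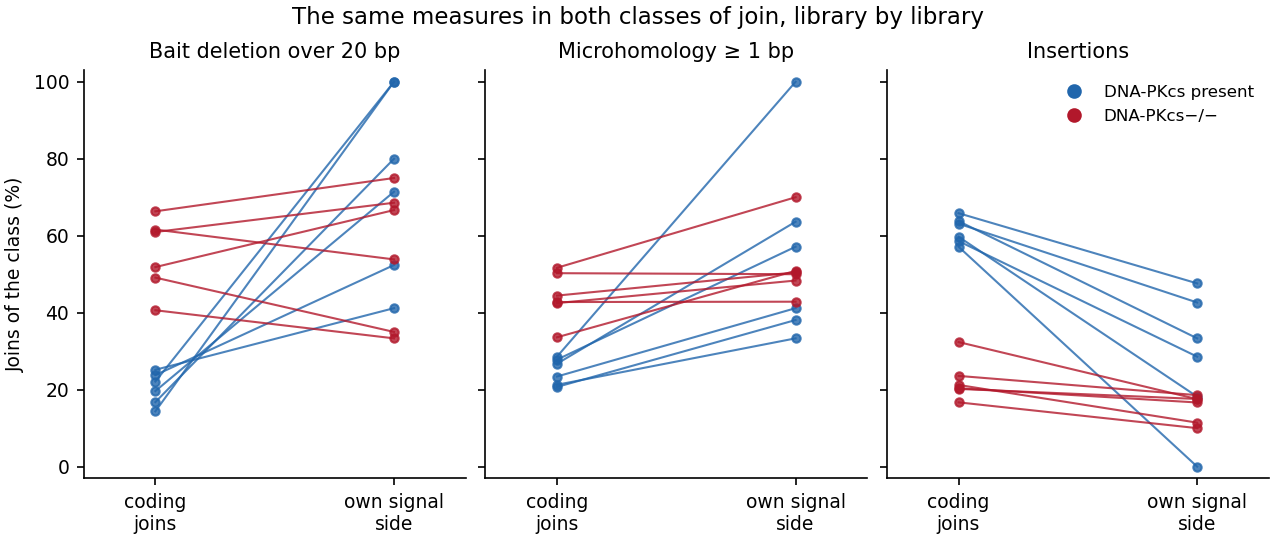
Lines join the percentage of coding joins and of own-signal-side joins (y axis) in the same library, for bait losses over 20 bp, microhomology of 1 bp or more, and insertions. The insertion lines fall in all 12 libraries, and the bait-loss lines rise in all 6 with DNA-PKcs (blue) and in 3 of 6 without it (red).

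CtIP A/A made no difference that passed the test in any of the 7 measures (0 of 7 also at an unadjusted p under 0.05; adjusted exact permutation p = 0.736 for each). Bait losses over 20 bp differed by -4.01 points (interval -28.6 to 20.0), microhomology by -3.42 points (-31.4 to 15.3) and insertions by 4.27 points (-4.95 to 18.1). G2 differed from G1 in 0 of 7 measures by the same test, again with 0 at an unadjusted p under 0.05. Insertions were lower in G2 in all 4 genotypes, by -14.6 points (interval -31.2 to 1.10; exact permutation p = 0.0864, adjusted 0.403), and microhomology was higher in all 4, by 16.8 points (exact permutation p = 0.173, adjusted 0.403). The microhomology difference was 8.48 points without the first wild type G2 replicate and 25.1 points without the second, which had 10 and 3 joins. In each genotype 1 of the 2 G2 libraries came from run 1, which held no G1 library. These intervals are wide, and a missed threshold does not show that the groups were alike.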

How the data were processed

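The authors deposited 1 table of junctions per library, with 1 line per join. Sonicated genomic DNA was, per the labels' protocols, linearly amplified from a primer on the substrate, nested-amplified, digested with BstBI and sequenced. Reads were aligned to mouse genome build mm10 with the substrate added as a chromosome. Bowtie2 and mm10 are named in the submitters' processing notes. The junction caller, its filters and its treatment of duplicates are not given in the sources used here. Used here were positions on the substrate and in the read, per the file headers. Overlap of bait and prey in the read gave homology, and a gap gave insertion.

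The substrate's letters were rebuilt from the reads (99.9994% of aligned bases matched their majority base) to place the heptamer, the BstBI site and other motifs. The bait began at 2121 in most reads and was read downwards, and 1943 is the first coding base. The shortest prey alignment was 26 bp, 44 joins had under 30 bp, and 21 lines repeated another. Shares were computed per library and tested by exact permutation within strata of the other factors (two-sided), with Benjamini-Hochberg adjustment, and coded as DNA-PKcs-/- minus present, CtIP A/A minus wild type and G2 minus G1. The code was tested on simulated data. The prey positions, bait ends and joins named were to be the 5 of each with the highest mean share over libraries among those seen in at least 2 libraries; other items were chosen after their values were seen. The joins and measures were chosen with earlier results of these data known. Python 3.11.15, numpy 2.4.6, pandas 2.3.3, scipy 1.17.1 and matplotlib 3.10.9 were used.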

Additional observations from a re-analysis of the deposited data

Results flagged for a closer look

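In the 6 libraries with DNA-PKcs, wild type G1 had 2 open-and-shut joins, 0.170% of substrate junctions, and the others had 0. Dixon's rule marks such a value by construction, and the counts of 0 allow shares of 0.565% to 1.62%, so the depth does not show a difference. Among the 6 DNA-PKcs-/- libraries the second DNA-PKcs-/- G2 replicate stood apart in microhomology, with 70.0% of its 20 joins. Chance alone puts about 1 in 20 such groups apart, and 14 were examined.

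The gap between signal-side and coding joins differed by DNA-PKcs status in all 3 measures compared: by -45.6 points for bait losses over 20 bp, by -20.9 points for microhomology and by 23.3 points for insertions. This comparison was added after the data were seen. The microhomology difference did not pass in 8 of 12 fits without 1 library, and neither it nor the insertion difference passed without the joins seen in 4 or more libraries.

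Bait losses over 20 bp differed in sign between phases. In G1 they were more frequent without DNA-PKcs in both pairs of libraries, by 17.6 points on average (33.8 in the wild type CtIP pair and 1.47 in the CtIP A/A pair), and in G2 less frequent in every pair, by -37.0 points. The difference between phases was not tested, and the G1 libraries with DNA-PKcs held 38 of the 42 joins in both dense windows.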

How the results depend on the processing

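Of 610 recomputed values of 27 results, 580 kept their direction. In 44 the exact test could not reach 0.05, and of the other 566, 524 kept both direction and side. For each factor a single measure at the smallest p could not pass after adjustment over 7, so an unchanged side there says little. Alternatives without adapter-sharing joins, without joins seen in 4 or more libraries, without both windows, without libraries under 10 joins, the coding-join comparison by run and all those for its gap by DNA-PKcs status were chosen after seeing the data. The comparison of that gap by DNA-PKcs status was itself added after the data were seen. The number of joins limits precision: 3 libraries had 10 or fewer.

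For DNA-PKcs, the share changed sign over all junctions (-0.165 points), and 3 results passed: the share (3.10 points) and median loss (-114 bp) with identical lines counted once, and open-and-shut joins within 20 bp (0.915 points). Microhomology changed sign without short or uncut alignments (0.743), without site-keeping joins (4.05), in run 2 (10.6) and without shared joins (11.3), and ranged from -9.44 to 7.22 with single libraries left out. Bait losses changed sign without site-keeping joins (0.605) and at 10 bp (9.62), and insertions in run 1 (4.96); bait losses ranged from -24.2 to -5.46 over left-out libraries. For CtIP A/A, bait losses changed sign in run 1 (9.05), at 50 bp (5.23), without both windows (1.88) and without small libraries (2.07), median loss (-1.13 bp) and microhomology (1.78) in run 2, and site keeping without shared joins (-4.23). Leaving out single libraries gave -9.08 to 1.71 for bait losses, -11.7 to 4.92 for microhomology and -0.402 to 7.99 for site keeping. For phase, open-and-shut joins changed sign on the log-odds scale (0.230), in run 2 (0.0388) and at 20 bp (0.0780), with -0.0511 to 0.0426 over left-out libraries, and bait losses without both windows (-4.15). The cause was not tested for any of these.

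Against coding joins, microhomology fell short without shared joins (10.2 points), and bait losses without small libraries (18.8) and in run 2 (20.2). In run 1, with 4 libraries, no exact test can pass, and the differences were 40.9, 28.5 and -28.0 points. The gap by DNA-PKcs status fell short for microhomology without site-keeping joins (-15.7), without shared joins (-8.39), with the replicate block (-22.9) and over left-out libraries (-28.3 to -13.4), and for insertions without shared joins (15.3). By run, where no test can pass, it was -59.4 and -50.6 for bait losses, -51.3 and -8.76 for microhomology and 42.6 and 17.5 for insertions.

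Same-numbered G2 replicates shared a run by their read names. Their deviations over 7 measures correlated between -0.387 and 0.672, over 0.1 in 5 of 6 pairs of genotypes, and were not treated as paired because the labels name no shared batch. With the replicate block, whose smallest p is 0.03125, the DNA-PKcs difference in share was 3.89 points and in median loss -93.2 bp, both at that p and neither past 0.05 after adjustment. Phase could not be blocked.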
